A study of Homo sapiens with 3 samples.

Results

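The promoter contacts of 10 genes that encode secreted components of WNT signalling were followed in human heart muscle cells grown from an embryonic stem cell line (hESC-CMs). The genes were the ligands *WNT2*, *WNT2B*, *WNT3*, *WNT3A*, *WNT5A*, *WNT5B* and *WNT11* and the inhibitors *DKK1*, *SFRP1* and *SFRP5*. They were chosen by name. For each gene, every called contact of a *Hin*dIII fragment that held an annotated transcript start was taken. In the 3 replicates together this gave 72 contacts of 8 genes, out of 200587 contacts of 19075 promoter fragments in the whole data. The measurement was promoter capture Hi-C (PCHi-C), in which chromatin is crosslinked, cut with *Hin*dIII and ligated, and ligation products that carry a promoter are enriched and sequenced. There was 1 group of 3 biological replicates, all untreated hESC-CMs made from the line WA09 (H9) at passage 32. The cells were selected in lactate medium without glucose, and their purity was checked at no less than 80 to 90% with the markers MYH7 and TNNT2, so other cells of the cultures may also have contributed DNA. The files hold DNA contacts and no expression, so the cell type could not be checked against marker genes here.

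The score of each contact came from CHiCAGO, which sets the read count of a pair of fragments against a background that falls with distance. A higher score marks stronger evidence for an excess and does not measure its size. The words stronger and strongest below refer to this score alone. The lowest score listed was 5.00 in each replicate, so a contact that is not listed in a replicate scored below 5 or was not seen, and is not shown to be absent. The replicates held 109731 to 112473 calls, with median scores of 6.63 to 6.65. Read counts per contact and sequencing depth were not analysed here. With 1 group there was no comparison between conditions, and 3 values against 3 cannot give an exact permutation p below 0.10, so the results below are descriptions with the spread between replicates.

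WNT proteins are secreted, lipid-modified ligands that bind Frizzled receptors. Through the co-receptors LRP5 and LRP6 they stabilise β-catenin, which then activates genes together with TCF/LEF factors, and through other routes they act without β-catenin. Dickkopf proteins such as DKK1 block LRP5 and LRP6, and secreted Frizzled-related proteins such as SFRP1 and SFRP5 bind WNT ligands outside the cell. In heart development canonical WNT signals first favour and later hold back cardiac differentiation, and WNT5A and WNT11 are known for signalling independent of β-catenin. Contacts of distal DNA with a promoter are one way in which enhancers reach their genes. A promoter-interacting region (PIR) is the fragment at the other end of such a contact.

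The 10 genes had 45 annotated transcript starts in 20 *Hin*dIII fragments of GRCh37, and 21 of the starts lay in 8 fragments that a replicate listed as a promoter. *WNT5A* was represented by the fragment chr3:55520012-55525021, which also holds a start of the antisense gene *WNT5A-AS1*, and *DKK1* by chr10:54071909-54076116, which also holds a start of *PRKG1-AS1*. *WNT11* was represented by chr11:75916514-75923973 and *SFRP5* by chr10:99524276-99532416. *WNT3* lay on a fragment of 21.30 kb, chr17:44889750-44911044, which it shared with a start of *WNT9B*, so contacts of these ligand genes cannot be told apart. *WNT5B* was represented by chr12:1637927-1644594, which holds its most upstream starts, while its starts in the other 5 fragments were on no listed promoter fragment. *WNT2B* was likewise read from its upstream start on chr1:113005482-113010005.

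Promoter sequence was available from RefSeq (GRCh38.p14) for 8 of the 10 genes, as 11 windows, and the 250 bases before each start were matched to GRCh37. All 11 matched exactly, and 5 of them lay inside a promoter fragment of the replicates. The windows of *WNT5B* lay outside, so its contacts below were read from other annotated starts. *WNT11* and *SFRP1* were not in the table. The windows of *DKK1*, *WNT5A* and *SFRP5* are shown because these promoters had contacts in every replicate and differ in sequence. Each is written on the strand of its gene and ends at the base before the start, and capitals mark matches to 3 motifs that were searched on both strands.
DKK1, chr10:54073791-54074040, plus strand: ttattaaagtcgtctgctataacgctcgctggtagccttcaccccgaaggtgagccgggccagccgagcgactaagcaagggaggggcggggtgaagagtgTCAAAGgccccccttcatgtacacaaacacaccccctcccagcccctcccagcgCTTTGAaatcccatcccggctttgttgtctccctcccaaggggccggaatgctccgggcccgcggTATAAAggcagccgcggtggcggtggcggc
WNT5A, chr3:55521335-55521584, minus strand: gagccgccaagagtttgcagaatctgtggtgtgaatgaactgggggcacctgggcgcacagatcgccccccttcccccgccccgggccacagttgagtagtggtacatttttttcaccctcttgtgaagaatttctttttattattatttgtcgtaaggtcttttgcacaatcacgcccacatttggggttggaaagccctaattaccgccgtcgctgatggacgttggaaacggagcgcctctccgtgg
SFRP5, chr10:99531757-99532006, minus strand: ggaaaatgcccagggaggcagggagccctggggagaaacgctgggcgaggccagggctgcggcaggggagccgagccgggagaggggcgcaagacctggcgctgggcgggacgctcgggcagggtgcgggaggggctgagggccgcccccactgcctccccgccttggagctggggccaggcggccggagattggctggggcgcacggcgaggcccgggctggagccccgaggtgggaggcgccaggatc
The motifs were CTTTGA, the core read by TCF/LEF factors, TATAAA, the TATA box, and AGATAA, a core read by GATA factors. The *DKK1* window held CTTTGA on both strands and TATAAA, with no overlap between them. *DKK1* is known as a target of β-catenin that feeds back on WNT signalling. Over all 35116 promoters of the table, 11.2% held CTTTGA and 10.7% held TATAAA. Of the 11 windows, 1 held CTTTGA, that of *DKK1*, and 2 held TATAAA, those of *DKK1* and of a *WNT5B* start. The windows are too few to set these counts against the shares. The *WNT5A* and *SFRP5* windows held none of the 3 motifs, nor did any of the 11 windows hold AGATAA, which 9.17% of all promoters held. G and C made up 52.8% of the *WNT5A* window, 62.8% of that of *DKK1* and 76.8% of that of *SFRP5*, against a median of 58.0% over all promoters. The 11 windows ranged from 50.8 to 86.0%.

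PIRs in introns of *ERC2*, *CACNA2D3* and *ERC1* are described below. From each of these genes, the fragment of at most 300 bp that was called in 2 replicates is shown whole, since it is short. Fragments near each of them were called too, so a short fragment does not locate the contact. Capitals mark what remains of the *Hin*dIII sites at both ends, and the plus strand of GRCh37 is given.
WNT5A PIR in CACNA2D3, chr3:54889014-54889294: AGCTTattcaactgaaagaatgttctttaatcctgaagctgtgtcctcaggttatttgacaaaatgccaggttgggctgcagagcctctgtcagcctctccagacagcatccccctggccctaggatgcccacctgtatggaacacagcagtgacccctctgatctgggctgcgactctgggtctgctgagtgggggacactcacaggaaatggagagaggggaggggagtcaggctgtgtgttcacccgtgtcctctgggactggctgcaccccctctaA
WNT5A PIR in ERC2, chr3:55749823-55750048: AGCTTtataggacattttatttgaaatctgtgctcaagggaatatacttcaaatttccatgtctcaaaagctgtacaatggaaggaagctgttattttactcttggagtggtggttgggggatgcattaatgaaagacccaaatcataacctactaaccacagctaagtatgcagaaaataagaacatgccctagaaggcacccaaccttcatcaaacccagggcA
WNT5B PIR in ERC1, chr12:1210130-1210324: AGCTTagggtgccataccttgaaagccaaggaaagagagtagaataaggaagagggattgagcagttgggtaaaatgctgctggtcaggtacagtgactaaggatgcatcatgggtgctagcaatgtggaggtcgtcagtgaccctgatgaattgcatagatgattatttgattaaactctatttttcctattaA
The fragments are 281, 226 and 195 bp long. Their content of G and C was 55.5, 39.8 and 42.1% in the same order, and they held 2, 0 and 1 CpG dinucleotides, below the 14 to 21 of the 3 promoter windows above.

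The number of contacts differed widely among the genes. *WNT5A* had 10 contacts in replicate 1, 14 in replicate 2 and 10 in replicate 3 (mean 11.3 ± 2.31, SD, n = 3). *WNT5B* had 8, 8 and 10 contacts (8.67 ± 1.15) and *DKK1* had 7, 8 and 10 (8.33 ± 1.53). These genes led the list, and their counts overlapped from one to the next. *SFRP5* had 7, 6 and 4 contacts (5.67 ± 1.53), *SFRP1* had 5, 5 and 4 (4.67 ± 0.577) and *WNT11* had 4, 2 and 3 (3.00 ± 1.00). *WNT3* had 1, 1 and 2 contacts and *WNT2B* had 1 in replicate 2 and none in replicates 1 and 3. No replicate listed the *WNT3A* promoter fragment, chr1:228193804-228205554, or the fragment with the *WNT2* starts, chr7:116957164-116964909. The latter was not found at either end of any call, on the merged replicates either. Whether it was captured without a call or not captured cannot be told from the files, so no contact of *WNT2* is described. Although the counts of each gene overlapped those of the next in this order, those of *WNT5A* lay above those of *SFRP5* and all genes after it in every replicate. Of all promoter fragments with a call, 84.9% had fewer contacts in the union of the replicates than *WNT5A* with 21, 76.1% fewer than *DKK1* with 15, 69.2% fewer than *WNT5B* with 12 and 30.0% fewer than *WNT11* with 4. The median over all promoter fragments was 6.00 contacts.

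**Figure D1:**
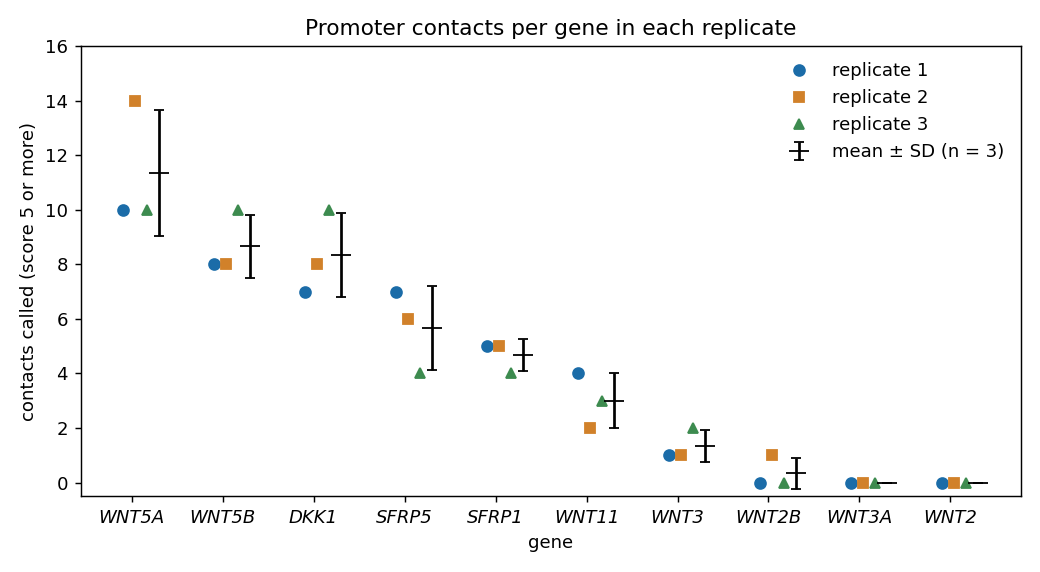
Number of contacts with a score of 5 or more (y axis) of each of the 10 genes (x axis) in replicates 1 to 3, with the mean and SD of the 3 replicates beside the points. *WNT5A* lies highest with 10 to 14 contacts, and *WNT3A* and *WNT2* have none.

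All 3 replicates called 22 of the 72 contacts, termed recurrent here (30.6%, 95% Wilson interval 21.1 to 42.0%, which covers counting error only). Over all contacts of the data this share was 24.0%. The interval treats contacts as independent, which those of 1 promoter are not, so it is no test of this difference. The shares were not matched for distance. A further 14 contacts were called in 2 replicates and 36 in 1. Of the 8 promoter fragments, 7 had a contact in all 3 replicates, with *WNT2B* the exception, where 51.9% of all promoter fragments had one. The only such contact of *WNT3* spans 18017.6 kb, and with contacts of at most 1 Mb the number was 6. The genes were chosen with earlier results of these data known, so this is no test against 51.9%. Contacts that recurred scored higher, which the cutoff favours. A contact recurs only if the same score reaches 5 in each replicate, and means used the calling replicates alone. The median of the mean scores was 7.58 for contacts in 3 replicates, 5.89 for those in 2 and 5.60 for those in 1. Among the recurrent contacts the mean scores ran from 5.22 to 15.9, beside a median of 8.32 over all recurrent contacts of the data. On the merged replicates the authors' calls held 61 of the 72 contacts, with each of the 22 recurrent ones among them, and 48 further contacts. Merged calls rest on the same reads, and the matching share over all contacts is not given here.

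**Figure D2:**
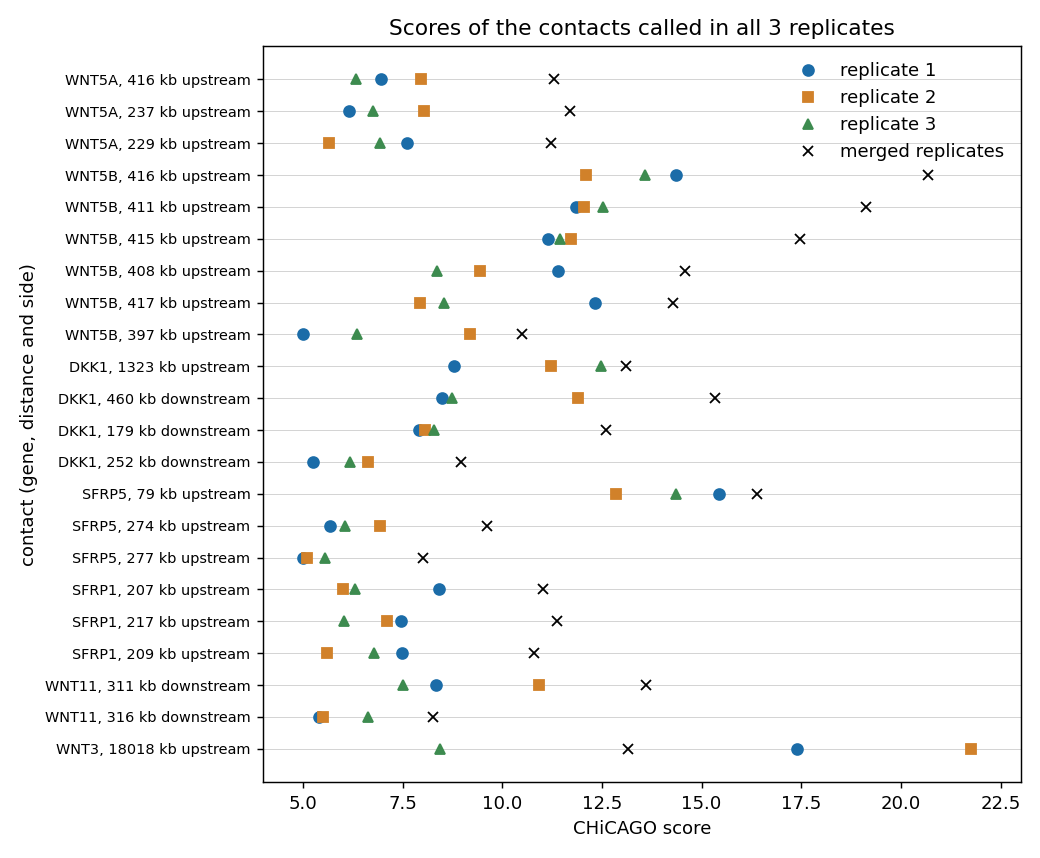
CHiCAGO scores (x axis) of the 22 contacts called in all 3 replicates, 1 row per contact named by gene, distance and side of the gene, with 1 symbol per replicate and a cross for the call on the merged replicates. *WNT5B* contacts near 411 to 416 kb upstream and the *SFRP5* contact at 79 kb score above 11 in each replicate, and the merged score is above all 3 replicate scores except for *WNT3*.

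Contacts were long. The median distance between fragment midpoints was 414 kb over the 72 contacts and 313 kb over the 22 recurrent ones, beside 716 and 395 kb over all contacts of the data. The medians of the single replicates were 356, 414 and 387 kb. Of the 71 contacts on the gene's own chromosome, 11 spanned more than 1 Mb, beside 42.1% over all such contacts. Of these 71, 50 lay upstream of the gene and 21 downstream, and of the recurrent ones 17 lay upstream and 5 downstream. *WNT5A* and *WNT5B* gave 16 and 12 of the 50, and 3 and 6 of the 17. No share over all contacts is given here for this split. The remaining contact joined *DKK1* to chromosome 3 with a score of 5.32 in replicate 3 alone. Over all contacts, 3.87% joined 2 chromosomes. No PIR lay in the body of the gene it contacted, where 4.17% of all contacts did. These values were not matched for gene length. *SFRP5* lies wholly within its promoter fragment and *DKK1* spans only 3.76 kb, which left little or no room for such a PIR. Only protein-coding and lncRNA genes were counted here. Introns of other genes held 43 of the 72 PIRs (59.7%, 33.4% over all contacts) and exons of other genes 18 (25.0%, 32.1% over all). A further 11 overlapped no gene of these types (15.3%, 30.4% over all). Another promoter fragment was the partner in 7 contacts (9.72%, 9.69% over all contacts). Contacts of 1 promoter share a neighbourhood and are not independent, so these shares were not tested.

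*WNT5A* contacted long genes on both sides of it. All 16 of its upstream PIRs lay in introns of *ERC2*, a presynaptic active-zone scaffold gene of 961 kb, at 218.6 to 766.3 kb from the promoter, and its 5 downstream PIRs lay in *CACNA2D3*, which encodes an auxiliary subunit of voltage-gated calcium channels, at 613.5 to 636.4 kb. Replicates 1, 2 and 3 called 9, 11 and 7 PIRs in *ERC2* and 1, 3 and 3 in *CACNA2D3*. The 3 recurrent contacts were all in *ERC2*. The PIR at 416.3 kb, chr3:55938594-55939083, scored 6.95, 7.96 and 6.34 (7.08 ± 0.818). The PIR at 236.9 kb, chr3:55758480-55760281, scored 6.16, 8.04 and 6.75 (6.98 ± 0.961). The PIR at 228.8 kb, chr3:55751105-55751525, scored 7.60, 5.66 and 6.93 (6.73 ± 0.985). The scores of the 3 contacts overlapped, and no replicate was highest in all of them.

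When PIRs less than 10 kb apart were joined, the *WNT5A* contacts fell into 6 blocks. The nearest block in *ERC2*, chr3:55740372-55760281, spanned 19.9 kb, and 7 of its 10 *Hin*dIII fragments were called, 2 of them in all 3 replicates. The short *ERC2* fragment shown above is part of it, with scores of 5.92 and 5.12 in replicates 2 and 3. The next block, chr3:55930482-55939083, spanned 8.60 kb with all 4 fragments called. The *CACNA2D3* block, chr3:54883167-54909598, spanned 26.4 kb with all 5 of its fragments called, yet none of them in all 3 replicates. Within it the short fragment shown above scored highest, with 9.24 and 6.38 in replicates 2 and 3. Of the 16 PIRs in *ERC2*, 15 were called from no promoter other than that of *WNT5A*. The promoter fragment with the most similar contacts was that of *ERC2* itself, chr3:56495119-56503235, which shared 2 PIRs with *WNT5A* (Jaccard index 0.0800, the shared share of all PIRs of both). Both shared PIRs lay in the *CACNA2D3* block, and *ERC2* contacted them in replicate 2 alone, with scores of 7.92 and 7.32.

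The contacts of *WNT5B* lay close together. All 12 of its PIRs lay upstream in *ERC1*, a paralogue of *ERC2*, at 384.6 to 431.4 kb, and 6 of them were recurrent. The PIR at 416.4 kb, chr12:1224115-1225510, overlaps an exon of *ERC1* with annotated transcript starts and scored 14.37, 12.10 and 13.59 (13.4 ± 1.15). The PIR at 411.4 kb, chr12:1227464-1232271, scored 11.84, 12.04 and 12.53 (12.1 ± 0.355), and the one between them, chr12:1225511-1227463, scored 11.15, 11.72 and 11.45 (11.4 ± 0.285). All 9 of these scores exceeded each score of *WNT5A*. The other recurrent PIRs had mean scores of 9.73 ± 1.53, 9.61 ± 2.38 and 6.85 ± 2.13. The block chr12:1220885-1260387 of 39.5 kb held 10 of the PIRs among its 17 fragments, and the other 2 lay in a small block that includes the *ERC1* fragment shown above. That fragment scored 6.23 in replicate 1 and 7.14 in replicate 3. On the merged replicates *WNT5B* had 26 contacts, all in *ERC1*, the largest with a score of 20.69. No call was listed from the other start fragments of *WNT5B*, and fragments that were not captured cannot be told there from captured ones without a call.

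The PIRs of *WNT5B* were shared with other promoters. The promoter fragment of *FBXL14*, an F-box protein gene that lies within *WNT5B*, chr12:1699476-1712096, contacted 10 of the 12 PIRs, all 6 recurrent ones among them. At the strongest *WNT5B* PIR, chr12:1224115-1225510, it scored 10.86, 18.61 and 10.10 (13.2 ± 4.71), which overlapped the scores of *WNT5B*. The promoter fragment of the lncRNA gene ENSG00000249028, chr12:1497053-1500988, contacted 8 of the 12 PIRs (Jaccard index 0.615), the highest index among the 10 genes. Its scores at the same PIR were 5.59, 5.97 and 5.07 in replicates 1 to 3 (5.54 ± 0.452), from a shorter distance of 274.2 kb. They did not overlap those of *WNT5B*, although scores are set against a background that depends on distance.

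*WNT11* contacted 1 region, downstream of the gene, in *UVRAG*, which encodes a protein of autophagy and endosome trafficking. Its 4 PIRs formed the block chr11:75602250-75623169 of 20.9 kb at 297.4 to 316.2 kb. The PIR chr11:75605929-75613179 scored 8.33, 10.91 and 7.51 (8.92 ± 1.77), and the neighbouring chr11:75602250-75605928 scored 5.41, 5.51 and 6.64 (5.85 ± 0.683). The 3 scores of the former lay above the 3 of the latter. All 4 PIRs were also contacted by the promoter fragment of the lncRNA gene ENSG00000255421, chr11:75844861-75849829 (Jaccard index 0.400), which scored 6.27, 8.10 and 9.03 at the stronger PIR.

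**Figure D3:**
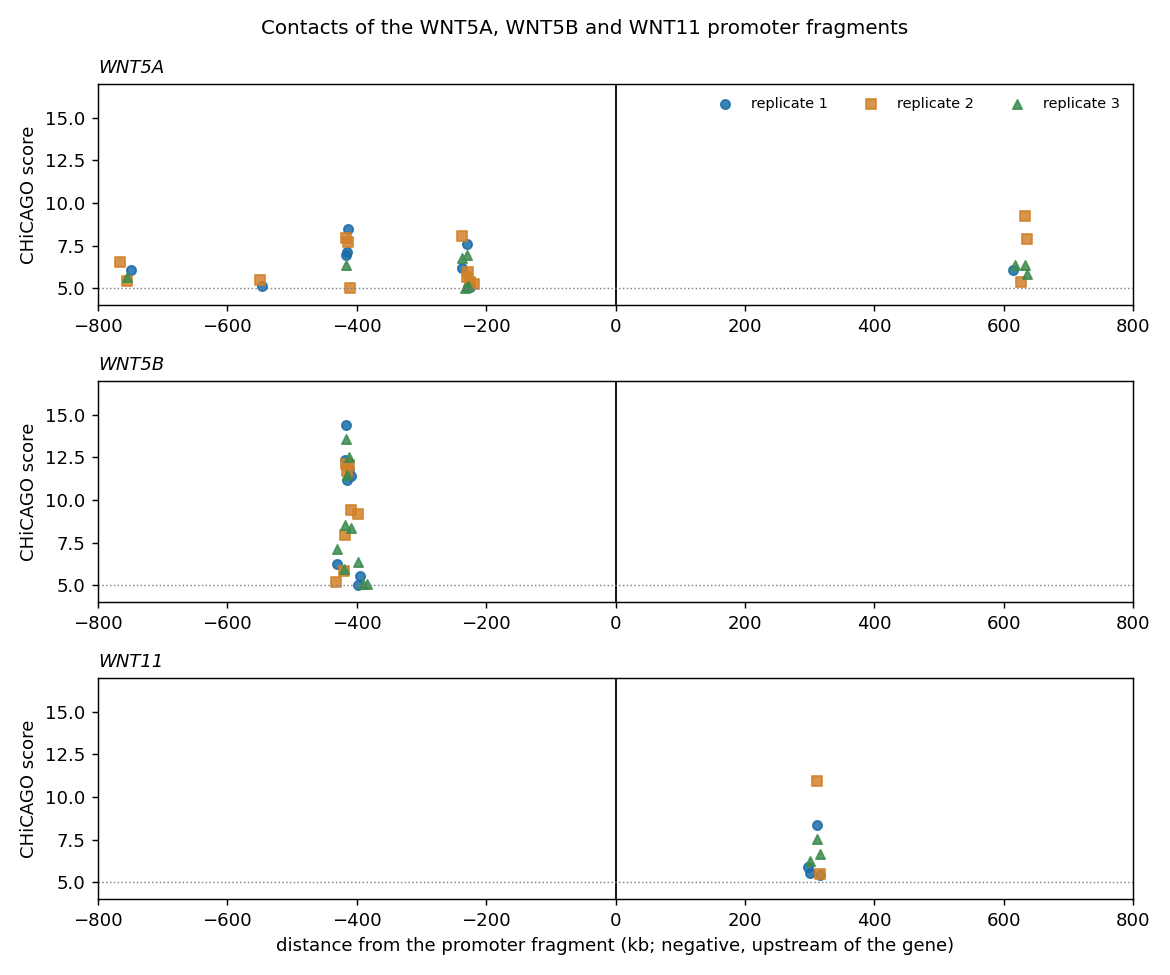
CHiCAGO score (y axis) against distance from the promoter fragment in kb (x axis, negative values upstream of the gene) for the contacts of *WNT5A*, *WNT5B* and *WNT11*, with 1 symbol per replicate and a dotted line at the lowest listed score of 5. *WNT5A* has groups of contacts on both sides, *WNT5B* has a tall group near 411 to 416 kb upstream, and *WNT11* has 1 group near 311 kb downstream.

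The contacts of *DKK1* were more spread, with 3 PIRs upstream, 11 downstream and 1 on another chromosome. The strongest was with the promoter fragment of *PRKG1*, chr10:52749059-52752455, at 1323.3 kb upstream, with scores of 8.79, 11.21 and 12.48 (10.8 ± 1.87). *PRKG1* encodes a cGMP-dependent protein kinase of smooth muscle and other tissues, and its body of 1308 kb lies between the 2 promoters. The next was with the promoter fragment of *MBL2*, which encodes mannose-binding lectin, chr10:54530033-54537282, at 459.6 kb downstream, with scores of 8.49, 11.90 and 8.74 (9.71 ± 1.90). The scores of these contacts overlapped. *PRKG1* and *MBL2* were also in contact with each other in all 3 replicates, with scores of 8.60, 10.38 and 17.16, so the 3 promoters contacted each other pairwise.

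*DKK1* also had recurrent contacts in introns of *LNCAROD*, a lncRNA gene named as an activating regulator of *DKK1*. The PIR chr10:54251709-54254743 at 179.2 kb scored 7.92, 8.05 and 8.28 (8.08 ± 0.182). In all, *LNCAROD* held 6 PIRs of *DKK1*, of which 2 were recurrent, and among the rest was its own promoter fragment with 6.25 in replicate 2. Around *MBL2*, 5 adjoining fragments, chr10:54529175-54548130, were all called in at least 1 replicate. *PRKG1* was also the promoter with the most similar contacts, with 5 shared PIRs of its 37 (Jaccard index 0.106).

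*SFRP5* contacted DNA upstream of it alone. Its strongest contact was with the promoter fragment of *GOLGA7B*, chr10:99603439-99610471, at 78.6 kb, the shortest contact of the 10 genes in the replicates. It scored 15.43, 12.84 and 14.35 (14.2 ± 1.30), above all other scores of *SFRP5* in each replicate. GOLGA7B is known as a partner of palmitoylating enzymes. Besides *SFRP5*, 11 other promoter fragments also contacted this fragment. The other recurrent PIRs, chr10:99801372-99803185 with 6.22 ± 0.652 and chr10:99803186-99808361 with 5.22 ± 0.282, adjoin each other at 273.9 and 277.4 kb. They overlap no annotated protein-coding or lncRNA gene, and belong to a block of 12.9 kb in which each of the 3 fragments was called. *ZFYVE27*, which encodes a protein of neurite outgrowth, had the most similar contacts, with 4 shared PIRs (Jaccard index 0.400), the *GOLGA7B* fragment among them with 8.76 and 8.40 in replicates 1 and 3.

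*SFRP1*, whose promoter fragment is chr8:41158437-41170511, contacted a block of 20.0 kb upstream, chr8:41362743-41382709, in which 5 of 11 fragments were called. The 3 recurrent PIRs lay in introns of the lncRNA gene *GPAT4-AS1*. They scored 8.41, 6.01 and 6.30 (6.91 ± 1.31) at 206.9 kb, 7.47, 7.12 and 6.04 (6.88 ± 0.745) at 217.3 kb and 7.48, 5.59 and 6.79 (6.62 ± 0.956) at 208.6 kb. These scores overlapped, and replicate 1 was highest at each PIR. The other 2 fragments of the block lie in *GOLGA7* and were called in replicate 1 alone, with 8.21 and 5.33. On the merged replicates 7 fragments in *GOLGA7* were called. The 3 contacts of *SFRP1* outside the block spanned 1404.4 to 77448.8 kb, and each was called in 1 replicate, with scores of 5.03 to 6.95. The promoter fragment of *RNU6-895P*, which lies within the body of *SFRP1*, shared 3 PIRs (Jaccard index 0.214).

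**Figure D4:**
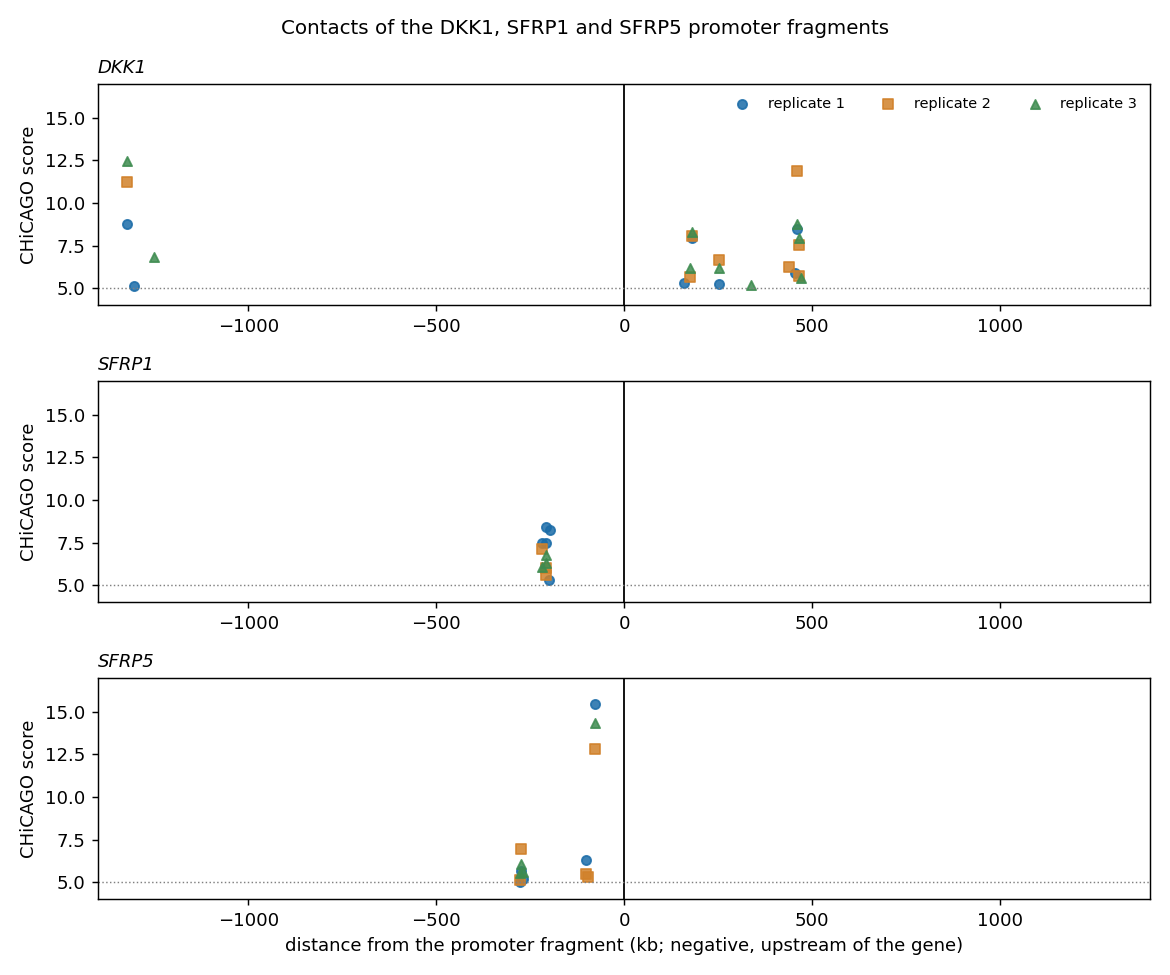
CHiCAGO score (y axis) against distance from the promoter fragment in kb (x axis, negative values upstream of the gene) for the contacts of *DKK1*, *SFRP1* and *SFRP5* that fall in the plotted range, with 1 symbol per replicate and a dotted line at the lowest listed score of 5. *DKK1* has contacts on both sides with scores up to 12.48, and the tallest group of *SFRP5*, at 79 kb, reaches 15.43.

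The neighbours contacted by the paired family members were themselves related. *WNT5A* and *WNT5B* contacted *ERC2* and *ERC1*, and *SFRP1* and *SFRP5* contacted *GOLGA7* and *GOLGA7B*, in each case upstream of the WNT pathway gene. The values differed within the pairs. *WNT5B*, read from its most upstream starts alone, had 6 recurrent contacts of 12 in *ERC1*, with mean scores up to 13.4. *WNT5A* had 3 recurrent contacts of 16 in *ERC2*, with mean scores up to 7.08 for the recurrent ones. *SFRP5* contacted the promoter of *GOLGA7B* in each replicate, and *SFRP1* contacted *GOLGA7* in 1 replicate. The pattern was noticed after the values were seen and was not tested.

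The single recurrent contact of *WNT3* stood apart from the rest. It joined the fragment of *WNT3* and *WNT9B* to chr17:62916905-62919105, at 18017.6 kb, with scores of 17.40, 21.76 and 8.43 (15.9 ± 6.80). The SD was the largest of the 22 recurrent contacts, and the merged score of 13.16 lay below the mean. The same PIR was called from 12 promoter fragments in all, which lay between 43.3 and 45.0 Mb of the chromosome, and from 10 of these in all 3 replicates. Among the 10, the mean score of the *WNT3* fragment was the lowest, and the highest was 140 ± 99.1 at *STH*. A stretch of 595 bp of the PIR (27.0% of it) aligned with 96.8% identity to 1 place between 43.0 and 45.5 Mb, 531 kb from the *WNT3* fragment and 551 bp before the start of *LRRC37A*. The PIR itself lies 1307 bp before the start of *LRRC37A3*, a member of the same duplicated family. The part of this near-identical sequence in the contact was not tested.

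The remaining ligands had few calls. *WNT2B* contacted the promoter fragment of *SSX2IP* at 27852.1 kb with 5.72 in replicate 2 alone. On the merged replicates *WNT2B* had 1 contact of 5.37 with the promoter fragment of *CTTNBP2NL*, and *WNT3A* had 1 contact of 5.52 with *RNF187* at 485.4 kb.

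The other genes of the pathway were listed by role for comparison. Of 62 such genes, 54 had a promoter fragment in the replicates and 38 a contact in all 3 (61.3% of the genes, beside 43.0% of all protein-coding genes and 7 of the 10 genes described here). The share of contacts found in all 3 replicates was 22.4% for other WNT ligands and 28.8% for other secreted inhibitors. It was 38.8% for receptors, 43.1% for genes of WNT secretion and agonists, and 32.5% for intracellular components. The other ligands include *WNT9B*, whose 2 contacts are those of the fragment shared with *WNT3*, so these count on both sides. Among genes with a contact, the median number was 8.50 for the genes described here, which pools ligands with inhibitors. It was 4.50 for other ligands, 15.0 for other inhibitors, 15.0 for receptors, 13.5 for secretion and agonists and 10.0 for intracellular components. By role, the ligands described here had 1, 2, 4, 12 and 21 contacts, which lie on both sides of 4.50. The value of 8.50 therefore shows no excess of these ligands over other ligands. The inhibitors described here had 8, 9 and 15 contacts, none above the median of other inhibitors. The agonist gene *RSPO3* had the most, with 80 contacts of which 41 were recurrent, the highest at 33.2 ± 0.807, and the receptor gene *FZD8* reached 33.0 ± 0.398. None of the 22 recurrent contacts of the genes described here scored as high, nor did any of them join 2 genes of the pathway. *WNT7A* and *WNT7B* were the other ligand genes with 3 or more recurrent contacts, with 3 and 5, and *SOST* with 11 and *WIF1* with 9 led the other inhibitors. The lists were not tested against each other.

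**Figure D5:**
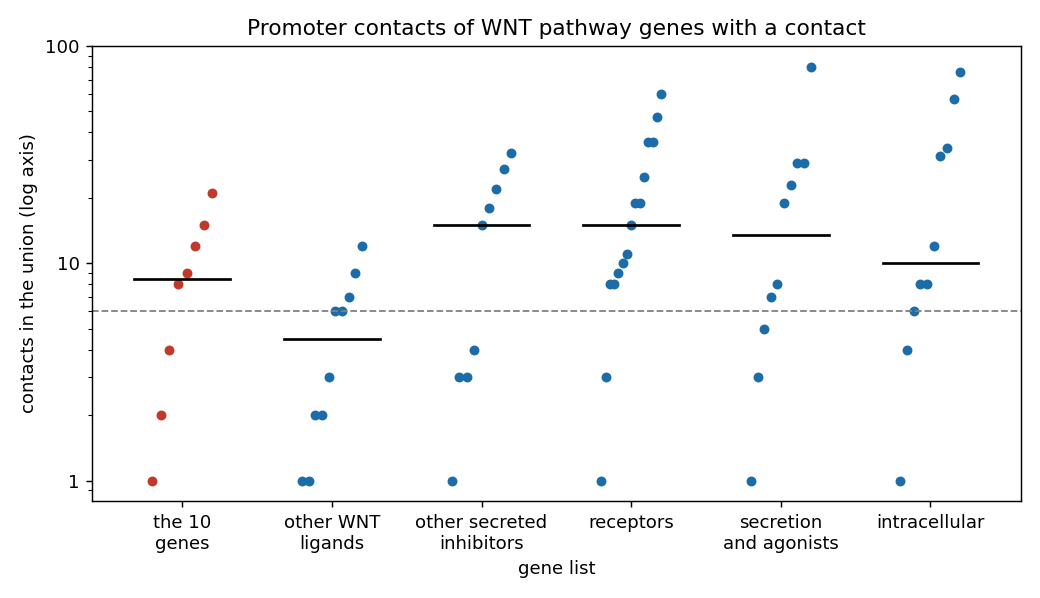
Number of contacts in the union of the 3 replicates (y axis, log axis) of each gene with at least 1 contact, by gene list (x axis), with the genes described here in red, the list median as a bar and the median of all promoter fragments, 6.00, as a dashed line. The genes described here have 1 to 21 contacts, and *RSPO3* and *TCF7L2* reach 80 and 76.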

How the data were processed

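PCHi-C was done on 3 biological replicates of hESC-CMs. The authors mapped reads to GRCh37 with HiCUP and called contacts with CHiCAGO at default parameters, with versions not given in the sources used here. The deposited files hold a CHiCAGO score of at least 5 per pair of *Hin*dIII fragments, for each replicate and for the merged replicates. No read was mapped again. The score is set against a distance-dependent background, so it is no contact frequency.

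Contacts were unordered fragment pairs, identical coordinates counted as the same contact, and the union of the replicates was the main set. Merged calls were made from the same reads and served as an alternative. Of the fragments on the 8 chromosomes of the promoter fragments, 65069 of 65069 equalled the *Hin*dIII digest of the genome. Genes came from GENCODE 44 lifted to GRCh37, and distances are between midpoints. The software was Python 3.11.15, pandas 2.3.3, numpy 2.4.6, scipy 1.17.1 and minimap2 2.31-r1302. The gathering of contacts was tested on simulated calls. No test was run. The sequence of 1 PIR is not reported here.

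The members and lists were chosen with earlier results of these data known. The rule for naming took, per gene, the 3 recurrent PIRs of highest mean score, recurrent PIRs with the start of another protein-coding gene, and the promoter fragment of highest Jaccard index with at least 2 shared PIRs. *GOLGA7*, *CACNA2D3*, *FBXL14*, single-replicate contacts, further recurrent PIRs and the pathway genes given as examples were named after their values were seen.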

Additional observations from a re-analysis of the deposited data

How the results depend on the processing

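The 72 contacts became 25 with a score of at least 7, 10 with a score of at least 10, 109 on the merged replicates and 36 when PIRs within 5 kb counted as the same contact. The share called in every replicate was 44.0% with a score of at least 7 and 47.2% within 5 kb. It was 40.3 to 49.2% when a replicate was left out, where a contact needs 2 replicates instead of 3. Genes with a contact in every replicate fell from 7 to 2 with a score of at least 10. The median distance was 313 kb on the merged replicates. The other values of these 4 results, including those with column 1 alone, with contacts of at most 1 Mb and with protein-coding starts, moved by less than 1.5 times or their spread. Leaving out a replicate left 59 to 62 contacts, 7 genes and a median distance of 396 to 414 kb. Of 60 alternative values for contacts per gene 22 moved, and of 28 for the highest score per gene 6 moved, all of them on the merged replicates. No paired analysis was possible because there was 1 group. Contacts below a score of 5 are not listed and depth was not analysed here, so a contact found in 1 replicate cannot be told from a weak one in all of them.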

Other observations

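Of the 109 contacts on the merged replicates, 48 were not called in any single replicate. *WNT5B* had 14 such contacts, all in *ERC1*, and *WNT5A* had 8 in *ERC2* and 1 in *CACNA2D3*. For *WNT5B* they added a block of 5 called fragments at chr12:1279006-1298036 and one of 4 at chr12:1315094-1337790, which are nearer to the promoter than any PIR of the replicates. *WNT11* gained 1 contact upstream of it, in *EMSY* with a score of 6.34, while all of its contacts in the replicates lay downstream. These merged calls rest on the same reads as the replicates and were not repeated.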
